A study of Mus musculus with 13 samples.

Results

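A set of 10 genes for proteins that cut the extracellular matrix, or that hold such cutting in check, was followed from the normal mouse ovary to ovarian tumors made by electroporation: the matrix metalloproteinases Mmp2, Mmp9, Mmp11, Mmp14 and Mmp19, the tissue inhibitors of metalloproteinases Timp1, Timp2 and Timp3, and the ADAMTS proteases Adamts1 and Adamts4. They were picked by gene symbol, and the 10 rows with these symbols were taken from the 53465 genes of the deposited RNA-seq table. The table holds 3 untreated ovaries of wild-type (WT) C57BL/6 mice and 10 untreated Myc;p53-/- ovarian EPO-GEMM tumors, called MP tumors below. EPO-GEMM stands for an electroporation-based genetically engineered mouse model: plasmids that overexpress MYC and carry Cas9 with a guide against Trp53 were injected into the left ovary of WT C57BL/6 females, and pulses of current drove them into the cells. The females were 8 to 12 wk old at that operation, and RNA was taken from whole tumors at end point, an interval the labels do not give. The labels attach the same protocol, with its age range, to the WT ovaries, and give neither their age at collection nor the stage of the estrous cycle. The current does not select a cell type, and in WT hosts no lineage label marks the cells that took up the plasmids. In other mice the paper limited editing to epithelial cells positive for cytokeratin-8. Tumors there had similar histology and transcription, and the paper concludes that the origin of EPO-GEMM tumors is epithelial.

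Matrix metalloproteinases (MMPs) are zinc enzymes, most of them secreted as inactive precursors, that cut collagens, gelatin, laminins and proteoglycans. TIMPs bind their active sites, and ADAMTS proteases, which carry thrombospondin repeats, cut proteoglycans such as versican and aggrecan. The ovary uses all 3 families in every cycle, when the follicle wall is opened at ovulation and when the corpus luteum is built and broken down, and tumors use the same enzymes in their stroma and at their edges.

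The libraries differed in depth and in composition. Reads worked back from the table came to between 31445004 and 64013840 per WT ovary and between 3892690 and 19906507 per MP tumor, so that a single read per kb of gene stood for 0.0513 TPM in the deepest library and 0.790 TPM in the shallowest. TPM is a level corrected for gene length and library total. The targeted gene Trp53 stood at 80.7, 85.0 and 85.4 TPM in the WT ovaries and at 4.30 to 26.0 TPM in MP tumors 1 to 9, while the library labelled MP tumor 10 had 187 TPM. In MP tumor 2, 10 genes took 55.1% of all TPM. The sample descriptions carry 1 of 3 IGO numbers, whose meaning is not given. The WT ovaries and MP tumors 1 to 3 share 1 of them (IGO group A below), MP tumors 4 to 6 another (group B), and MP tumors 7, 8, 9 and 10 the last (group C). Tissue and IGO number can be separated only within group A. In bulk tissue a lower level can come from fewer cells of a type or from less RNA in each cell, and these cannot be told apart. The labels do not say that each library came from a separate animal, so P values measure the spread between these libraries.

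Of the members, 6 have a promoter window in the RefSeq set used here (GRCm38.p6): Mmp11, Mmp14, Timp1, Timp2, Timp3 and Adamts1. No window was used for Mmp2, Mmp9, Mmp19 and Adamts4. One stretch per family, the 150 bases before the RefSeq start site, is printed to show what lies at the start of a membrane protease, an inhibitor and an ovulatory ADAMTS gene. Capitals mark the motif matches described after them, which are an ACCACA and a pair of adjoining GC boxes in Mmp14 (chr14:54431448-54431597, plus strand), a GC box in Timp1 (chrX:20870016-20870165, plus strand) and GC boxes with a TATA box in Adamts1 (chr16:85803114-85803263, minus strand).
Mmp14: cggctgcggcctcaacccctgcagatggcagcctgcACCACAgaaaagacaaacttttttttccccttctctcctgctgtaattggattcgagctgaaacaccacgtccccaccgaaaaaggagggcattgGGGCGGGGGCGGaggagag
Timp1: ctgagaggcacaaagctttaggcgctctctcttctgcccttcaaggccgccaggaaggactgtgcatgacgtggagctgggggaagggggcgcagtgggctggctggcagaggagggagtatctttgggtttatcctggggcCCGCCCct
Adamts1: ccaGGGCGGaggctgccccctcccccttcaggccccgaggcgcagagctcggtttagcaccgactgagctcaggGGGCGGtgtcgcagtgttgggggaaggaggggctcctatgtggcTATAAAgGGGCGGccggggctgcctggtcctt

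A set of 5 motifs was searched on both strands of the 250 bases before each start. The GC box GGGCGG was present in all 6 member windows, against 32.7% of all 32851 windows of the same length, and the 6 windows held between 54.4% and 68.0% G and C against a median of 52.4% over all windows. In 3 of the 6 the window is not simply upstream of the gene: 203 of its 250 bases in Timp2 and 40 in Timp3 lie in an exon of the same gene in GENCODE, and the RefSeq start of Mmp11 lies 3994 bases inside the GENCODE gene. The AP-1 motif TGANTCA was in 0 of the 6 windows and in 6.75% of all windows, and the E-box CACGTG, the core that MYC with its partner MAX is known to bind, was in 0 of the 6 and in 6.02% of all. The RUNX core TGTGGT, read in Mmp14 on the other strand as ACCACA, was found in Mmp14 and in 14.0% of all windows. The TATA box TATAAA was found in Adamts1, starting 32 bases before its start, and in 12.4% of all windows. These matches describe letters in a short window and say nothing of binding.

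Mmp11, Mmp14 and Mmp19 were lower in MP tumors than in WT ovaries, while Mmp2 and Mmp9 spread from far below the WT ovaries to above them. Mmp11 (stromelysin-3, an MMP released in an already active form) lies on chromosome 10 (75923222 to 75936496, GRCm38, minus strand). It stood at 274, 214 and 384 TPM in WT ovaries 1, 2 and 3, and at a lowest of 2.40 (MP tumor 2), a median of 20.5 and a highest of 92.2 TPM (MP tumor 5) in the tumors. Every tumor lay below every WT ovary. Mmp11 fell by 3.89 on the log2(TPM + 1) scale (SE 0.84, limma adjusted P = 0.00542). Its gene overlaps Chchd10, which lies on the opposite strand and reached 322 TPM, and whether strand was used in the counting is not given in the sources used here.

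Mmp19, a secreted MMP that cuts basement membrane proteins, was found at chromosome 10 from 128790910 to 128800824 (plus strand). Its level was 20.5, 14.3 and 33.6 TPM in the WT ovaries, and 0.549 (MP tumor 3), 1.37 and 8.95 TPM (MP tumor 9) as the lowest, median and highest tumor. Again the groups did not overlap. Mmp19 fell by 2.99 on the log2 scale (SE 0.55, limma adjusted P = 0.00174), and the call for both Mmp11 and Mmp19 held in each of the 25 alternatives run.

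Mmp14 encodes the membrane-anchored MT1-MMP, which cuts fibrillar collagen at the cell surface and activates the precursor of MMP2. It lies on chromosome 14 (54431612 to 54445364, plus strand). The WT ovaries held 141.7, 140.7 and 188.9 TPM, and the tumors 1.06 (MP tumor 2) at the lowest, 12.8 at the median and 141.5 TPM (MP tumor 9) at the highest, with MP tumor 5 next at 125 TPM. MP tumor 9 thus lay within the WT range, and the other 9 tumors lay below it. Mmp14 fell by 3.37 on the log2 scale (SE 1.06, limma adjusted P = 0.0421), close to the threshold of 0.05. With WT ovary 1, 2 or 3 or MP tumor 1, 3, 4, 6 or 8 left out the limma adjusted P was between 0.054 and 0.161, and with each of the other 5 tumors left out the call held.

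Mmp2, gelatinase A, is the enzyme that MT1-MMP activates, and cuts denatured collagen and type IV collagen. The gene lies on chromosome 8 (92827291 to 92853420, plus strand). Mmp2 stood at 137, 127 and 165 TPM in the WT ovaries. In the tumors the lowest level was 3.55 TPM (MP tumor 3), the median 29.9 TPM and the highest 996 TPM (MP tumor 9), and MP tumor 5 had 503 TPM. Below every WT ovary lay 8 tumors, and the other 2, MP tumors 5 and 9, lay above every one. The mean difference was -1.96 on the log2 scale (SE 1.38, limma adjusted P = 0.326), less than the spread between tumors.

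Mmp9, gelatinase B, shares much of the substrate range of MMP2 and is stored in large amounts by neutrophils. It was taken from chromosome 2 (164940780 to 164955850, plus strand). Its level was low throughout: 6.91, 7.18 and 9.60 TPM in the WT ovaries, with a lowest of 0.0509 (MP tumor 2, a single read), a median of 0.615 and a highest of 14.3 TPM (MP tumor 5) in the tumors. As for Mmp2, 8 tumors lay below every WT ovary, and MP tumors 5 and 9 (9.89 TPM) lay above all 3. The difference of -1.73 on the log2 scale (SE 0.76) had a limma adjusted P of 0.128, and without MP tumor 5 the difference was -2.01 with an adjusted P of 0.0363.

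**Figure D1:**
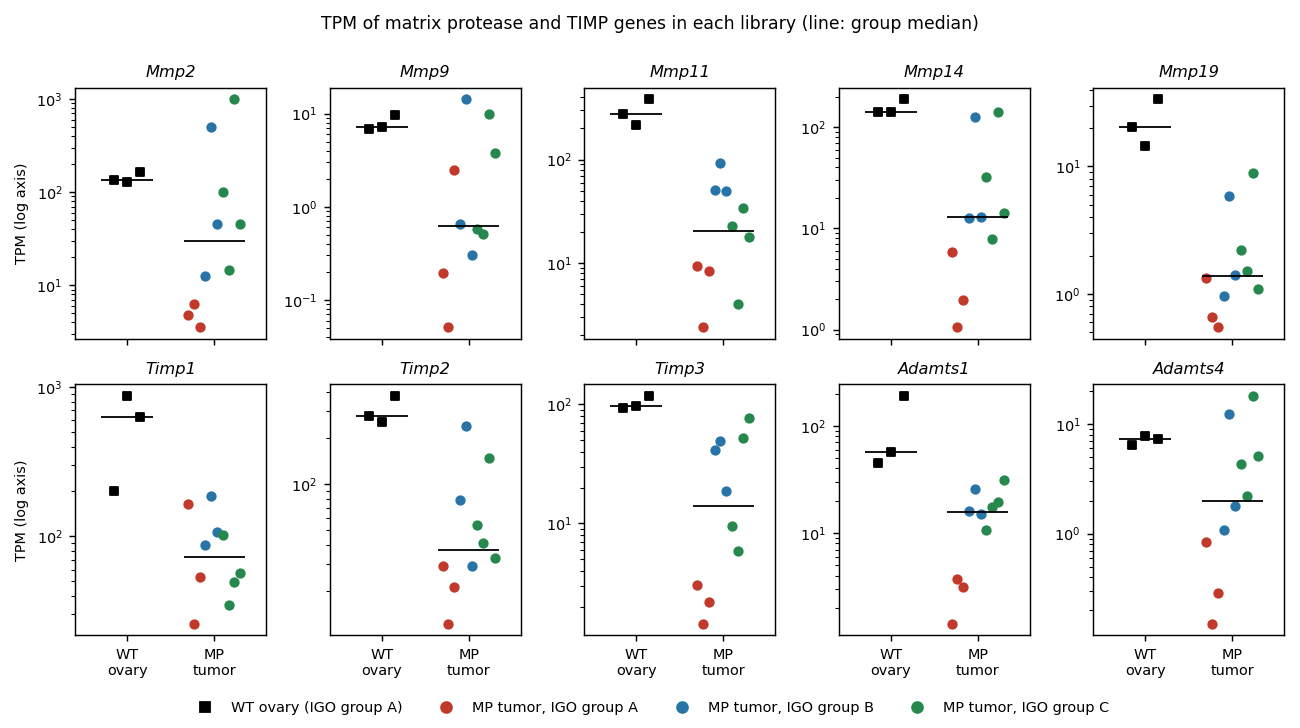
TPM of each of the 10 genes (log axis) in 3 WT ovaries (squares) and 10 MP tumors (circles, coloured by IGO group), with a line at each group's median. For Mmp11, Mmp19, Timp1, Timp2, Timp3 and Adamts1 every tumor sits below every WT ovary, while for Mmp2, Mmp9 and Adamts4 MP tumors 5 and 9 sit above the WT ovaries.

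Timp1 and Timp2 were lower in MP tumors, and for all 3 TIMP genes each tumor lay below each WT ovary. Timp1, a secreted inhibitor of most soluble MMPs that also binds the precursor of MMP9, lies on chromosome X (20870166 to 20874735, plus strand). It gave the highest single value among the members in the WT ovaries and also the widest range of the TIMPs there, at 203, 875 and 635 TPM in WT ovaries 1, 2 and 3. The tumors ran from 25.9 (MP tumor 2) through a median of 72.5 to 186 TPM (MP tumor 5). WT ovary 1 and MP tumor 5 are the nearest libraries of the 2 groups, and they do not cross. Timp1 fell by 2.72 on the log2 scale (SE 0.58, limma adjusted P = 0.00494), and without WT ovary 2, its highest library, it stood at -2.29 with an adjusted P of 0.0543.

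Timp2 forms a bridge between MT1-MMP and the precursor of MMP2 at the cell surface, besides inhibiting MMPs. It lies on chromosome 11 (118301069 to 118355740, minus strand). Its level in the WT ovaries was 279.6, 254 and 376 TPM, and the tumors had a lowest of 12.1 (MP tumor 2), a median of 36.8 and a highest of 238 TPM (MP tumor 5). MP tumor 5 came closest to the WT ovaries without reaching them, and MP tumor 9 (148 TPM) was next. It fell by 2.66 on the log2 scale (SE 0.69, limma adjusted P = 0.0159). Leaving out any of the 3 WT ovaries gave adjusted P values between 0.0608 and 0.0935, with differences between -2.78 and -2.50.

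Timp3 stays bound to the matrix and, unlike the other TIMPs, also inhibits ADAM17 and the aggrecanases. Its gene is on chromosome 10 (86300372 to 86349506, plus strand). The WT ovaries lay close together at 92.8, 96.6 and 118 TPM. The tumors ran from 1.44 (MP tumor 2) through a median of 14.1 to 76.6 TPM (the library labelled MP tumor 10), all below the WT ovaries. The tumors varied so much among themselves that the difference of -2.83 on the log2 scale (SE 0.99) missed the threshold (limma adjusted P = 0.0609). It passed without MP tumor 5 (adjusted P = 0.0398), without MP tumor 9 (adjusted P = 0.039) and without the library labelled MP tumor 10 (adjusted P = 0.0316).

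Adamts1 encodes the versican-cutting protease that progesterone receptor induces in granulosa cells before ovulation. Its gene is on chromosome 16 (85793827 to 85803113, minus strand). Its WT levels were the most uneven of the ADAMTS pair, at 44.7, 57.2 and 190.3 TPM. In the tumors Adamts1 had a lowest of 1.42 (MP tumor 1), a median of 15.6 and a highest of 31.2 TPM (the library labelled MP tumor 10). The groups did not overlap, and Adamts1 fell by 2.77 on the log2 scale (SE 0.75, limma adjusted P = 0.0203). Without WT ovary 3, the highest library, the difference was -2.14 with a limma adjusted P of 0.162. Without WT ovary 2 the limma adjusted P was 0.0619, although the difference was larger in size, with an SE of 0.913. Without WT ovary 1 the call held (limma adjusted P = 0.046). All genes called lower numbered 1158, 1195 and 1185 without WT ovary 1, 2 or 3, against 2463 in all libraries. Loss of calls in these fits was thus not particular to Adamts1.

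Adamts4, aggrecanase-1, cuts aggrecan and versican. It lies on chromosome 1 (171250421 to 171260637, plus strand). Adamts4 was low and even in the WT ovaries, at 6.51, 7.81 and 7.24 TPM. The tumors ran from 0.150 (MP tumor 2) through a median of 1.99 to 18.1 TPM (MP tumor 9). MP tumors 5 (12.3 TPM) and 9 lay above every WT ovary and the other 8 below, as for Mmp2 and Mmp9. The difference was -1.17 on the log2 scale (SE 0.76, limma adjusted P = 0.287).

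Counted together, 6 of the 10 members were lower and 0 were higher in MP tumors by limma (adjusted P under 0.05), where 14.3% of the 17277 genes tested were lower and 2.51% were higher. All 10 members passed the filter on low values (1 TPM or more in 3 or more libraries). For 6 of the 10, every tumor was below every WT ovary, which was so for 16.4% of genes tested, with 3.02% the other way round. These 6 include Timp3, which limma did not call, and leave out Mmp14, which it did. The median difference of the members was -2.74 on the log2 scale and that of all genes tested was -0.58. After median-of-ratios scaling, which brought the median of all genes to -0.02, the members' median was -2.06, and 6 were lower, beside 11.0% of genes lower and 7.39% higher.

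The same comparison was made within IGO group A, where 3 MP tumors face the 3 WT ovaries. All 10 members were lower there (limma adjusted P between 1.81e-05 and 0.012), with a median of -4.17. In this subset 57.3% of all genes were lower, 6.44% were higher and the median of all genes was -1.19, so most genes shared the direction. Mmp14 had the largest difference (-5.50) and Mmp9 the smallest (-2.43). The number of members called lower over all 13 libraries was 2 without WT ovary 2 and 3 without WT ovary 3, and it was 6 when MP tumor 2 and the library labelled MP tumor 10 were left out together. Of the 17277 genes, 1195, 1185 and 2901 were lower in these 3 fits, against 2463 in all libraries.

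**Figure D2:**
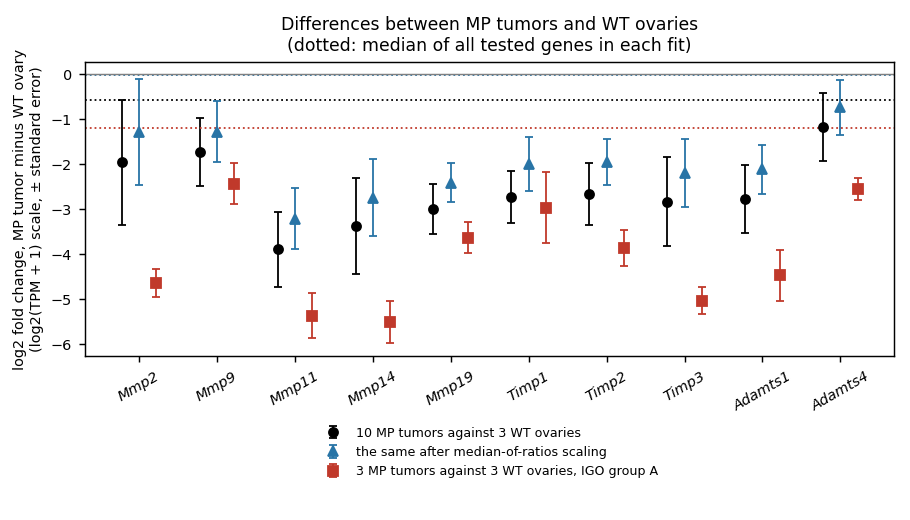
Difference between MP tumors and WT ovaries on the log2(TPM + 1) scale with its standard error for each of the 10 genes, in all 13 libraries (black), after median-of-ratios scaling (blue) and in the 6 libraries of IGO group A (red); dotted lines mark the median of all genes in each fit. Every point lies below 0 and below the dotted line of its own fit.

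Levels within the WT ovary fell into steps, read on the TPM scale, which corrects for gene length. Timp1, Timp2 and Mmp11 had the highest medians (635, 279.6 and 274 TPM), and their ranges overlapped. Mmp14 and Mmp2 followed with medians of 142 and 137 TPM, overlapping each other and lying below every value of Timp1, Timp2 and Mmp11. Timp3 came next with a range of 92.8 to 118 TPM, below every value of Mmp2 and Mmp14, and the wide range of Adamts1 spanned Timp3 and reached above both. Mmp19 lay below these members, and Mmp9 and Adamts4, whose ranges overlapped, lay lowest.

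The tumors were far from uniform. The SD of log2(TPM + 1) among the 10 tumors was 2.68 for Mmp2, which was at the 99.7th percentile of all genes tested, 2.03 for Mmp14 and 1.86 for Timp3, where the median gene had 0.86. Timp1 (0.92) and Mmp19 (0.88) varied about as much as the median gene. Mmp2 ranged over 280-fold between the highest and the lowest tumor and Timp1 over 7.17-fold. MP tumor 5 was among the 3 highest tumors for all 10 members and MP tumor 9 for 8, and each was the highest for 4. MP tumor 2 was among the 3 lowest for all 10 members. The 10 genes together took 0.121%, 0.179% and 0.211% of all TPM in the WT ovaries, and between 0.00538% (MP tumor 2) and 0.148% (MP tumor 9) in the tumors.

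Part of this variation ran with the IGO number. The 3 tumors of IGO group A had lower values than the other 7 tumors in 7 members (limma, adjusted P under 0.05), beside 30.1% of all genes lower and 1.29% higher in the same comparison. Adamts1 stood at 1.42 to 3.73 TPM in the 3 and at 10.6 to 31.2 TPM in the 7, a difference of -2.42 on the log2 scale (SE 0.40, adjusted P = 0.00101 by limma). Timp3 stood at 1.44 to 3.02 TPM against 5.88 to 76.6 TPM, a difference of -3.13 (SE 0.68, adjusted P = 0.00423 by limma). The ranges did not overlap for either gene. The same held for Mmp2 (3.55 to 6.25 against 12.7 to 996 TPM), Mmp14 (1.06 to 5.79 against 7.92 to 141.5 TPM) and Adamts4 (0.150 to 0.839 against 1.07 to 18.1 TPM). The share of all genes without overlap between these tumors was not counted. Mmp2 (-3.82), Mmp14 (-3.05), Mmp11 (-2.10), Adamts4 (-1.98) and Timp2 (-1.72) also passed, and Mmp9, Mmp19 and Timp1 did not. The count of 7 was 2 after median-of-ratios scaling (Timp3 and Adamts1) and 0 after quantile normalization, and it was 2 without MP tumor 2 or 3, 3 without MP tumor 1 and 4 without MP tumor 5. Of the 17277 genes, 1677 were lower and 2423 higher in the first of these fits, 1377 and 1661 in the second, and 2830, 3509, 4714 and 4464 were lower without MP tumor 2, 3, 1 or 5. MP tumor 2, where few genes took most of the TPM, is 1 of these 3 libraries. What sets the tumors of different IGO numbers apart was not tested.

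The mix of proteases was described by shares taken within a library, which do not depend on its total, and these shares were not tested. A trend of level with gene length can still shift shares and ratios of genes of unlike length. No such trend was removed from them. Mmp11 was the most abundant of the 5 MMPs in 3 of 3 WT ovaries and in 4 tumors, and Mmp2 was in the other 6 tumors. Mmp2 made up 21.1% to 25.3% of the summed TPM of these MMPs in WT ovaries, and 16.3% to 83.7% in the tumors, with 7 tumors above every WT ovary. Of these 7, only MP tumor 2 is in IGO group A, where MP tumors 1 (22.4%) and 3 (21.1%) had shares like those of the WT ovaries. The share of Mmp14 was 24.2% to 27.9% in the WT ovaries and lay below every one of them in 8 tumors. Among the TIMPs, Timp1 led in 2 WT ovaries and 6 tumors and Timp2 in 1 WT ovary and 3 tumors. Timp3 led only in the library labelled MP tumor 10, where it made up 46.1% of the 3 inhibitors.

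The summed MMP level was 1.01, 0.411 and 0.692 times the summed TIMP level in WT ovaries 1, 2 and 3. The tumors ran from 0.11 (MP tumor 1) through a median of 0.438 to 4.78 times (MP tumor 9), and MP tumor 5 was next highest at 1.56. Below every WT ovary lay 5 tumors, within their range 3 and above it 2, so protease and inhibitor RNA did not keep 1 proportion. Without Mmp2 and Timp1, the members of each family with the highest mean TPM over the tumors, the WT median was 1.19 and the tumor median 0.560, and over all genes of both families the medians were 0.801 and 1.02, so the order of the groups depended on which genes were summed.

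**Figure D3:**
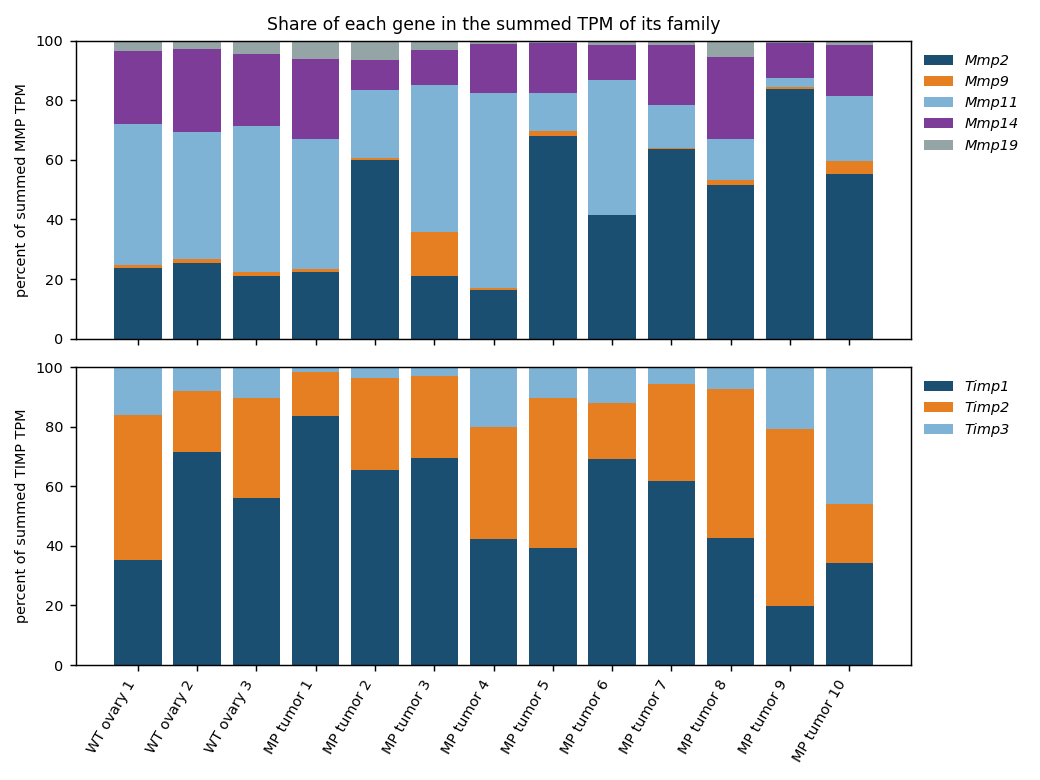
Share of each gene in the summed TPM of the 5 MMPs (upper panel) and of the 3 TIMPs (lower panel), in percent, with 1 bar per library. Mmp11 is the largest MMP share in the WT ovaries, Mmp2 fills 83.7% of the bar of MP tumor 9, and Timp3 fills 46.1% of the bar of the library labelled MP tumor 10.

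A family of 5 pairs of genes whose proteins are known to bind or act on each other, or to share substrates or inhibitors, was compared over the 10 tumors on the log2(TPM + 1) scale, and P values come from 2-sided permutation tests adjusted over the 5 pairs. Mmp14 and Mmp2, activator and target, moved together most closely: Pearson's r was 0.956 (P = 3e-05, adjusted P = 0.00015 by permutation) and Spearman's rho 0.952 (P = 5e-05, adjusted P = 0.00025 by permutation). Without MP tumors 5 and 9, the highest in Mmp14, r was 0.868 (permutation adjusted P = 0.0153), and with the mean of each IGO number removed it was 0.921. Timp2 and Mmp14 gave r = 0.928 (P = 0.00019, permutation adjusted P = 0.00048) and rho = 0.818 (P = 0.00583, permutation adjusted P = 0.00972), with r = 0.805 without MP tumors 5 and 9 and r = 0.893 with IGO means removed. Its rank correlation passed in neither, at rho = 0.667 (permutation adjusted P = 0.138) and 0.733 (permutation adjusted P = 0.0506), nor after median-of-ratios scaling, at rho = 0.648 (permutation adjusted P = 0.0828). The proteins of this trio meet at the cell surface, and whether that bears on these correlations was not tested. Bgn (r = 0.975) and Hdac7 (r = 0.971) followed Mmp2 more closely than Mmp14 did.

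Timp2 and Mmp2 gave r = 0.821 (P = 0.00407, permutation adjusted P = 0.00509) and rho = 0.745 (P = 0.0174, permutation adjusted P = 0.0217). This relation rests on MP tumors 5 and 9, since r was 0.470 without them (permutation P = 0.246). With IGO means removed r was 0.723 (permutation adjusted P = 0.0296) but rho was 0.552 (permutation adjusted P = 0.143), and after median-of-ratios scaling neither r (0.616, permutation adjusted P = 0.0711) nor rho (0.382, permutation adjusted P = 0.352) passed. Timp3 and Adamts1 gave r = 0.868 (P = 0.00074, permutation adjusted P = 0.00123) and rho = 0.867 (P = 0.0024, permutation adjusted P = 0.006), and without the tumors farthest from the median in Timp3, MP tumor 2 and the library labelled MP tumor 10, r was 0.818 (permutation adjusted P = 0.0153) and rho 0.810 (permutation adjusted P = 0.0541). With IGO means removed r was 0.542 (permutation P = 0.107), so the relation was not established within IGO numbers. Timp1 and Mmp9, inhibitor and bound precursor, showed no relation that passed: r was 0.188 (permutation P = 0.6, adjusted 0.6), rho was 0.176 (permutation P = 0.633, adjusted 0.633), r was 0.172 with IGO means removed, and r was -0.555 without MP tumors 2 and 5.

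Summed markers of other cell types were set beside the members, without a test of the relation. The summed TPM of 8 fibroblast and stroma markers (Col1a1, Col1a2, Col3a1, Pdgfra, Dcn, Lum, Fap and Postn) was 1337 to 2320 in the WT ovaries and 103 to 4694 in the tumors, and the tumors that held the most were MP tumor 9 (4694) and MP tumor 5 (2473), the same pair that was highest in Mmp2 and Mmp14. The list was not uniform in them: in MP tumor 5 Dcn (118 TPM), Lum (82.7 TPM) and Pdgfra (38.7 TPM) lay below every WT ovary and the other markers above, and in MP tumor 9 Pdgfra (56.9 TPM) lay below and the rest above. The next tumor, MP tumor 7, had 625 and was also next to them in Mmp2 (101 TPM) and Mmp14 (32.1 TPM). The 6 smooth muscle markers summed to 1483 to 1729 TPM in the WT ovaries and to 55.0 to 1291 in the tumors, and 6 endothelial markers to 272 to 288 and to 6.16 to 193, both highest among tumors in MP tumor 5. By limma 2 of the 8 fibroblast, 5 of the 6 smooth muscle and 3 of the 6 endothelial markers were lower, beside 14.3% of all genes. The part of these cells in the members' levels was not tested.

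Markers of the follicle and the corpus luteum were low in the tumors. The 8 granulosa cell markers summed to 3920 to 7253 TPM in WT ovaries and to 17.5 to 1530 in tumors, 6 theca and luteal cell markers to 26851 to 31920 and to 8.93 to 824, and 8 oocyte markers to 305 to 454 and to 1.38 to 23.4, with no overlap for any of the 3 lists. By limma 7 of the 8, 5 of the 6 and 8 of the 8 markers were lower, against the same 14.3% of all genes. Macrophage markers overlapped between the groups, at 612 to 885 TPM against 201 to 898, with 0 of 8 called. Neutrophil markers were 6.47 to 11.7 TPM in WT ovaries and 6.57 to 66.2 in tumors, with Ly6g at 0 in every tumor and Elane at 0 in every WT ovary. T cell markers were 9.93 to 12.7 and 0.282 to 10.3 TPM. Epithelial and HGSOC (high-grade serous ovarian cancer) markers were 289 to 320 and 8.28 to 1201 TPM, below every WT ovary in 7 tumors and above in 3. Of these epithelial markers 4 of 8 tested were lower, of the T cell markers 2 of 4 tested and of the neutrophil markers 0 of 4 tested. Their part in the members' differences was not tested.

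**Figure D4:**
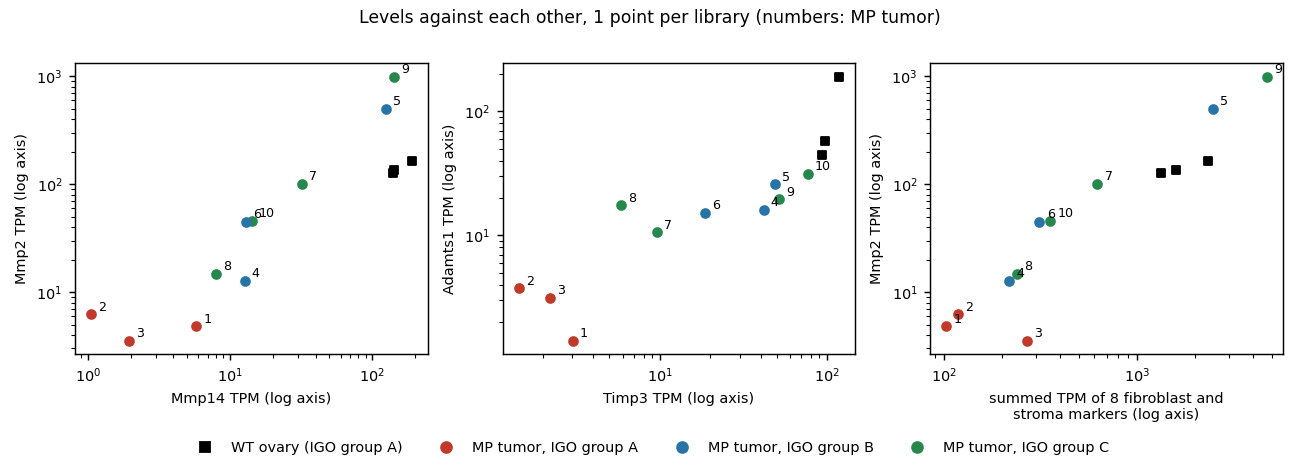
TPM of Mmp2 against Mmp14 (left), Adamts1 against Timp3 (middle) and Mmp2 against the summed TPM of 8 fibroblast and stroma markers (right), all on log axes, with 1 point per library, squares for WT ovaries and numbered circles for MP tumors. MP tumors 5 and 9 lie at the upper right of the left and right panels, and the 3 tumors of IGO group A lie at the lower left of the middle panel.

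The rest of each family was read from lists written by hand. Of 18 other MMP genes 10 were tested, and 2 were lower and 0 higher (median -0.84 on the log2 scale, beside -0.58 for all genes), a share near the 14.3% of all genes that were lower. The counts of the lists that follow are to be read against the same 14.3%. Mmp17, which encodes an MMP held to the membrane by a lipid anchor, stood at 4.27 to 5.55 TPM in WT ovaries and 0 to 1.88 in tumors and fell by 2.13 (SE 0.33, limma adjusted P = 0.000369), and Mmp28 was the other. Of 17 other ADAMTS genes 15 were tested, and 5 were lower and 0 higher (median -0.88). These were Adamts2, which trims procollagen (-3.85), Adamts19 (-3.69), the aggrecanase Adamts5 (-2.84), Adamts9 (-2.23) and Adamts7 (-2.19). Outside the rule for named genes, and chosen after its values were seen, Adamts8 had 9 tumors above every WT ovary (WT median 0.277, tumor median 2.27 TPM) but a limma adjusted P of 0.170. Of 7 ADAMTS-like genes, whose proteins have the repeats without the protease, 6 were tested and 3 were lower, among them Adamtsl4 and Adamtsl2, and the count was 1 after median-of-ratios scaling.

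Inhibitors beyond the 3 TIMPs were read in the same way. Of 8 other inhibitor genes 5 were tested and 2 were lower. Reck, a membrane-anchored inhibitor of MMPs, stood at 30.2 to 33.0 TPM in WT ovaries and at 0.0716 to 11.4 in tumors and fell by 3.37 (SE 0.78, limma adjusted P = 0.00814). Timp4, the remaining TIMP, fell by 1.95 from a WT median of 3.30 TPM (limma adjusted P = 0.00549). In the plasminogen system, whose product plasmin opens MMP precursors, 3 of 5 genes tested were lower, and all 3 were named by the rule. Serpine2, an inhibitor of plasminogen activators and thrombin, had the largest difference, with 225 to 484 TPM in WT ovaries, 1.17 to 13.3 in tumors and -6.06 on the log2 scale (SE 0.56). The urokinase gene Plau fell by 3.63 and the tissue plasminogen activator gene Plat by 2.52 (limma adjusted P = 0.049).

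Among 9 genes for activation and clearance of MMPs, 1 was lower, no larger a share than among all genes. It was the proprotein convertase Pcsk5 (-4.10), and Furin, which cuts the precursors of MMP11 and MT1-MMP, had a difference of -2.18 (limma adjusted P = 0.150). Of 9 ADAM genes 8 were tested and 4 were lower, with Adam17, the TNF-alpha converting enzyme, at 64.6 to 67.9 TPM in WT ovaries and 5.48 to 37.4 in tumors, and with Adam9, Adam12 and Adam19 beside it. All 16 genes for matrix proteins that these enzymes cut were tested and 4 were lower (median -2.35): versican (Vcan, -3.44), lumican (Lum, -3.77), nidogen-1 (Nid1, -3.15) and Sparc (-2.28). The count was 2 after median-of-ratios scaling, where 11.0% of all genes were lower, and 16 within IGO group A, where 57.3% were. Lum and the type I and III collagens also stand in the fibroblast list.

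The ovulation list holds genes that act beside Adamts1 in the follicle about to rupture. Of 13 genes 8 were tested and 5 were lower. Lhcgr, the receptor for the ovulatory LH surge, had 244 to 865 TPM in WT ovaries and 0 to 5.79 in tumors, and the cholesterol carrier Star had 1684 to 2506 against 0.875 to 29.98 TPM. Both are also in the theca and luteal marker list. Runx2 fell by 4.90 and Runx1 by 3.19 on the log2 scale, both transcription factors that the LH surge induces, and the fifth gene was Ptx3. Tnfaip6, which crosslinks hyaluronan in the expanding cumulus, had a difference of 0.86 (limma adjusted P = 0.401).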

How the data were processed

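Bulk poly(A) RNA-seq of 10 MP tumors and 3 WT ovaries was read from 1 table of TPM values per gene and library, which the authors deposited. The submitters' processing notes name Trimmomatic 0.36, STAR 2.5.3a and featureCounts 1.6.3 with mm10, while the labels' protocol names hg19, HTSeq and RPKM. The gene coordinates of all 10 members match mouse GENCODE M21 (GRCm38). Reads were recovered from TPM times gene length, and 100% of values above 0 were whole within 0.05 read. TPM was tested as log2(TPM + 1), which understates changes of low genes, in genes at 1 TPM or more in 3 or more libraries, by limma 3.58.1 (trended, robust) in R 4.3.3 with Benjamini-Hochberg adjustment over all 17277 genes and no covariate. Samples were matched to columns by the labels, and 0 columns of samples were left unused.

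The alternatives varied the pseudocount, the filter, the scaling, the IGO number, the limma options, voom on the recovered reads, a replicate block and single libraries. Removal of a length trend, and of MP tumors 2 and 10, was added after seeing the data. Replicate numbers are shared only by WT ovaries and MP tumors 1 to 3, which are different tissues of mice not said to be paired, and same-numbered libraries did not deviate together (r = -0.0963, -0.0214 and 0.00118). Libraries of 1 group differed by more than sampling noise (chi-square per degree of freedom 28.4 to 657). The members, gene lists and tests were chosen with earlier results of these data known. The genes named are the members, up to 4 called genes per list with the largest moderated statistic and a mean TPM of at least 1, the genes most like Mmp2, Timp1 and Adamts1, and Trp53. Any other name was chosen after its values were seen. Permutation tests drew 100000 resamples in SciPy 1.17.1 under Python 3.11.15. Tested on simulated data for this comparison (16365 genes), limma found 40 of 46 genes lowered and 53 of 56 raised 8-fold, 16 of 47 lowered and 27 of 51 raised 4-fold, all in the right direction, and 10 genes left unchanged were called. The simulated reads had a dispersion of 0.3 in both groups and no effect of IGO number. In the data the SD of log2(TPM + 1) of Mmp2 was 2.68 among the tumors and 0.19 among the WT ovaries. These rates thus need not hold for the members. Figures were drawn with matplotlib 3.10.9.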

Additional observations from a re-analysis of the deposited data

How the results depend on the processing

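All 10 members had a negative difference between MP tumors and WT ovaries in each of 25 alternatives, and the calls of Mmp11 and Mmp19 held in all of them. The number of members lower was 10 in the libraries of IGO group A alone, with the IGO number as a covariate and with a replicate block, and was 2 to 8 with single libraries left out. The first 3 of these fits all take the difference from the libraries of IGO group A. Their equal estimates were fixed in advance and are not separate support. In these same 3 fits Mmp2 (-4.63), Mmp9 (-2.43), Timp3 (-5.03) and Adamts4 (-2.55) passed. The block used numbers 1 to 3, which share only a number, and no sample could be shown to be paired. With voom Mmp9 (-2.54) and Timp3 (-3.04) passed, with quantile normalization Timp3 did (-2.36), and without MP tumor 2 and the library labelled MP tumor 10 Timp3 did (-2.81). Mmp14 no longer passed with a pseudocount of 0.1 (-3.57), with no filter (-3.37) or without that pair of libraries (-3.01). With a length trend removed 6 members were lower, beside 1772 of all genes. The median of all genes was then 0.04, against -0.58 in the main fit. Timp3, the longest member (8144 bases), went from -2.83 to -1.91, and Timp1, the shortest (888 bases), from -2.72 to -2.56. The cause was not tested.

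With single libraries left out the differences ranged from -2.49 to -1.62 for Mmp2, -2.01 to -1.58 for Mmp9, -4.14 to -3.61 for Mmp11, -3.73 to -3.05 for Mmp14, -3.27 to -2.68 for Mmp19, -3.34 to -2.29 for Timp1, -2.92 to -2.46 for Timp2, -3.10 to -2.55 for Timp3, -3.17 to -2.14 for Adamts1 and -1.43 to -0.98 for Adamts4. All genes lower numbered 2463, with 1158 to 3264 when single libraries were left out, 9902, 8534 and 9803 in the IGO subset, covariate and block fits, and 4042 with voom. All genes higher numbered 433, with 94 to 635, then 1112, 894 and 1087, and 1879, in the same order, 1276 with median-of-ratios scaling, 1904 with quantile normalization, 1780 with a length trend removed and 675 without the same pair of libraries.

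Between the tumors of IGO group A and the others, 7 members lower became 2 with median-of-ratios scaling and 0 with quantile normalization, and 2 to 7 with single tumors left out. All genes lower were 5195, then 1677 and 1377, and 2830 to 5565, and all genes higher were 223, then 2423 and 1661, and 46 to 343. Timp1 turned from -0.35 to 0.97 and 0.43 under the same scalings and ranged from -1.05 to 0.26 with single tumors left out, and Mmp19 turned from -0.91 to 0.078 with quantile normalization. Timp2 with Mmp2 gave r = 0.616 after median-of-ratios scaling and 0.470 without MP tumors 5 and 9, Timp3 with Adamts1 gave 0.542 with IGO means removed, and Timp1 with Mmp9 turned to -0.152 and, without MP tumors 2 and 5, to -0.555. The WT ratio of MMP to TIMP was 0.692 and 1.19 without Mmp2 and Timp1. Depth limits the lowest values, such as Mmp9 in MP tumors 1, 2, 4, 6 and 7, which rest on 1 to 5 reads.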

Other observations

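The genes whose pattern over the 10 tumors was most like that of a member were looked up among 8822 genes with a mean TPM of at least 10 in the tumors, as a description. Nearest to Mmp2 were Bgn, which encodes the small proteoglycan biglycan (Pearson's r = 0.975 on the log2(TPM + 1) scale), and Hdac7, a class IIa histone deacetylase (r = 0.971). Nearest to Timp1 were Olfml2b (r = 0.909) and Akr1b10 (r = 0.904). Nearest to Adamts1 were Zfyve9, which encodes the SMAD anchor SARA (r = 0.988), and Med13, a Mediator subunit (r = 0.982). Bgn stood at 177 to 367 TPM in the WT ovaries and at 3.67 to 526 in the tumors.

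Pgr, the progesterone receptor gene known to act upstream of Adamts1 at ovulation, was at 0.684 to 0.993 TPM in the WT ovaries and at 65.96 TPM in MP tumor 9, with a tumor median of 0.0133 TPM. It did not pass the filter on low values, so it was not tested, and it was singled out after its values were seen. Adamts1 was at 19.5 TPM in that tumor, within the range of the other tumors. None of the 10 members had a tumor set apart from the other 9 by Dixon's criterion.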
